A study of Mus musculus with 12 samples.

Results

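The second week after a nerve crush was examined by setting the RNA of the distal sciatic nerve on day 14 against that on day 7. The comparison uses 6 of the 12 arrays of the series, the 3 labelled day 14 and the 3 labelled day 7, and reads each change against the 3 arrays of day 0. All groups were C57Bl6 mice aged about 2 months. The nerve of the right hind limb was compressed for 30 s at the upper thigh, which severed the axons and left the outer sheath whole, and 0.5 cm of nerve beyond the crush was taken 7 or 14 days later. The protocol in the labels gives the same crush for every group, day 0 included, and names no sham operation. The RNA of 6 mice was pooled for each array, which gives 18 mice a day, and the p-values measure the spread between pools.

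A crush starts Wallerian degeneration in the distal stump. Schwann cells, the myelinating glia of peripheral nerve, drop their myelin programme and become repair cells, and macrophages enter and clear myelin and axon debris. As axons grow back through the preserved sheath, Schwann cells stop dividing, differentiate again and wrap the new axons in myelin. The samples are whole nerve, so fewer cells of a type and less RNA per cell cannot be told apart. The question here is which RNAs moved during the second week, and whether they moved toward the day 0 level or away from it.

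The array carries 90752 probes of 60 bases, designed against mouse long non-coding RNA. The files give no gene names and no positions, so the tissue could not be checked against its usual protein-coding markers. A probe was named here only where all of its 60 bases match a RefSeq sequence of build GRCm38.p6. A total of 887 probes lie whole within a miRNA hairpin on its own strand, and they cover 883 of 1005 hairpin genes. A further 249 lie in a window from 250 bases before to 50 bases after a gene's start on the gene's strand, and 228 lie in such a window on the other strand. A hairpin is the folded part of a longer primary transcript from which the mature miRNA of about 22 bases is cut. A hairpin probe reads any RNA that contains the hairpin, host transcripts included, and does not measure the mature miRNA. A probe in a start window need not read the gene it is named after.

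The probes with the largest change in each of 4 classes are shown first, because no name could be given to them. They are the largest rise toward day 0, the largest rise away from it, the largest fall toward it and the largest fall away from it, among probes seen clearly on each of the 6 arrays. The sequence is the same strand as the RNA that the probe detects.
MOUSELNCRNA_58744, rise toward: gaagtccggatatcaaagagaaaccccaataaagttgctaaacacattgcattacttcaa
MOUSELNCRNA_79568, rise away: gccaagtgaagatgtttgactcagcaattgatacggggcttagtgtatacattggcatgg
MOUSELNCRNA_88135, fall toward: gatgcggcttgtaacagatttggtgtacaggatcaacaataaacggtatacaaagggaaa
MOUSELNCRNA_76825, fall away: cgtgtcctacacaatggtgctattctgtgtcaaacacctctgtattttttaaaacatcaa

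The hairpin probes on which most of the named results turn are shown next, with the bases of those mature arms that the RefSeq table lists in capitals. Mir338 and Mir3065 are read from opposite strands of the same stretch of chromosome 11, so these 2 probes overlap in position and not in the strand they detect.
Mir338: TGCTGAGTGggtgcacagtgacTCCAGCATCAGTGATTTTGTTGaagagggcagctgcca
Mir3065: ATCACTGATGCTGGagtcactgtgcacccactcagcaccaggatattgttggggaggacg
Mir195a: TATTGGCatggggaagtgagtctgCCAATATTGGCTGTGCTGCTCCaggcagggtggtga
Mir147: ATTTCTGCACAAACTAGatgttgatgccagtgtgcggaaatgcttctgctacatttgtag
Mir214: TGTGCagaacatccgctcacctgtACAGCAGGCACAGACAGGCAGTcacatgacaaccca
Mir21a: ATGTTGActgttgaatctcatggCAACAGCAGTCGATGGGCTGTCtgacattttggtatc
Mir219a-1: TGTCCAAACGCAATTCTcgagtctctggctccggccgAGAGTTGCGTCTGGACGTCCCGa

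Mature miRNAs cut from 6 of these hairpins and from the let-7 hairpins described further on are given with the seed, bases 2 to 8, in capitals. The seed is the stretch that pairs with target messages. Among them let-7d-5p and let-7f-5p share the seed GAGGUAG.
miR-338-3p: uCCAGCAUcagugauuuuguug
miR-3065-5p: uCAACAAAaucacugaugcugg
miR-195a-5p: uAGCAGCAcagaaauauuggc
miR-214-3p: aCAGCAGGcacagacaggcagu
miR-21a-5p: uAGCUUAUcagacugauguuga
miR-219a-5p: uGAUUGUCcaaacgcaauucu
let-7d-5p: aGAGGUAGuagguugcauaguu
let-7f-5p: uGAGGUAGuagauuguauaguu

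Between 64.2% and 71.5% of spots were well above background on the 6 arrays, with all 3 day 14 arrays at 64.2% to 64.6% and the day 7 arrays at 67.5% to 71.5%. No spot was saturated. The arrays lay on 3 slides, each scanned at 1 time. The day 14 arrays were all on slide 3 together with day 7 replicate 1, and day 7 replicates 2 and 3 were on slide 2. A fit with slide as a fixed block therefore compares day 14 with day 7 replicate 1 alone, and its value, called the same-slide value below, is given beside the results. Day 7 replicates 2 and 3 thus differ from day 14 in slide as well as in time, and for them the slide and the day cannot be told apart. The day 0 arrays lay on slide 1 (replicates 1 and 2) and slide 2 (replicate 3), with 79.1%, 79.5% and 69.0% of spots well above background. No day 0 array shared a slide with a day 14 array, so slide and day cannot be told apart between them.

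Of 62803 probes tested, 6254 (9.96%) differed between day 14 and day 7 at a limma adjusted p below 0.05. A total of 3521 rose (5.61%) and 2733 fell (4.35%). Rises outnumbered falls here, but the balance depended on the fit: rises made up 56.3% of the calls, 49.7% with only the arrays of days 7 and 14 and 46.8% with array weights. The median change over all tested probes was -0.05 on the log2 scale. The median called rise was 0.80 and the median called fall -0.75, against a median standard error of 0.16. Rises held more of the large changes. At 2-fold or more, 1274 probes had risen (2.03%) and 733 had fallen (1.17%), at 4-fold or more 357 and 79, and at 8-fold or more 102 and 17. The 3 arrays of one day all lay above the 3 of the other for 23375 probes (37.2%), with day 14 above for 16.8% and below for 20.4%, so separation of the arrays alone was common.

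With day 7 replicate 1 alone, on the same slide, 3477 probes (5.54%) were called, 2073 higher and 1404 lower. In the same direction, 2716 probes were called with and without the block. Each day 7 array gave the change in every called probe the same sign as the mean did. The calls were made with these arrays, so this and the medians that follow are a description and have no test. The called rises had a median of 0.73 against day 7 replicate 1, on the shared slide, 0.87 against replicate 2 and 0.81 against replicate 3. The called falls had medians of -0.69, -0.74 and -0.80. The number called also depended on which arrays were used. Leaving out day 7 replicate 2 or 3 gave 3677 and 3663, and leaving out day 14 replicate 1 or 2 gave 3529 and 3559.

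A set of called probes was seen on one day alone. There were 84 that stood well above background throughout day 14 and nowhere on day 7. A lower bound was formed for each, setting its day 14 mean against the lowest clearly detected signal of each day 7 array, or against its own day 7 signal if higher. That bound reached 2-fold for 82 of the 84 and 8-fold for 5, and the largest was at least 15.9-fold. In the other direction 229 probes were seen throughout day 7 and nowhere on day 14. Their bound reached 2-fold for 56 and 8-fold for 3, and the largest was at least 19.9-fold. The day 14 arrays had fewer spots above background in all, as given above, and the part of this in the second count was not tested. The same patterns were not counted among probes that were not called, so these counts have no base beside them.

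Most of the called probes moved toward their day 0 level. A probe was counted as moving toward day 0 if its day 14 mean lay nearer to its day 0 mean than its day 7 mean did, and as moving away otherwise. By this count 4644 of the 6254 called probes (74.3%) moved toward day 0 and 1610 (25.7%) moved away. The shares were alike for rises, 74.1% toward, and for falls, 74.5% toward. Over all 62803 tested probes, called or not, 49.6% lay nearer on day 14, 58.4% of the rises and 43% of the falls. In this fit the called falls thus stood farther above their share over all probes than the called rises did. The split uses the same day 7 and day 14 arrays as the call, so it is a description and has no test. Day 14 and day 0 shared no slide, so nearness to day 0 also carries any difference between slides. Blocked by slide, 2502 of 3477 called probes (72.0%) moved toward day 0, with 79.7% of the rises and 60.5% of the falls. With the block the share over all tested probes was 53.3%, with 55.1% of rises and 51.7% of falls. There the called rises stood farther above their share than the called falls did, so the order turned over. Among the 2007 called probes that moved 2-fold or more (3.2% of those tested), 1551 (77.3%) moved toward day 0. Means on the opposite sides of day 0 were counted separately: 960 of the probes that ended nearer had crossed the day 0 level on the way, and 784 of those that ended farther had.

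**Figure D1:**
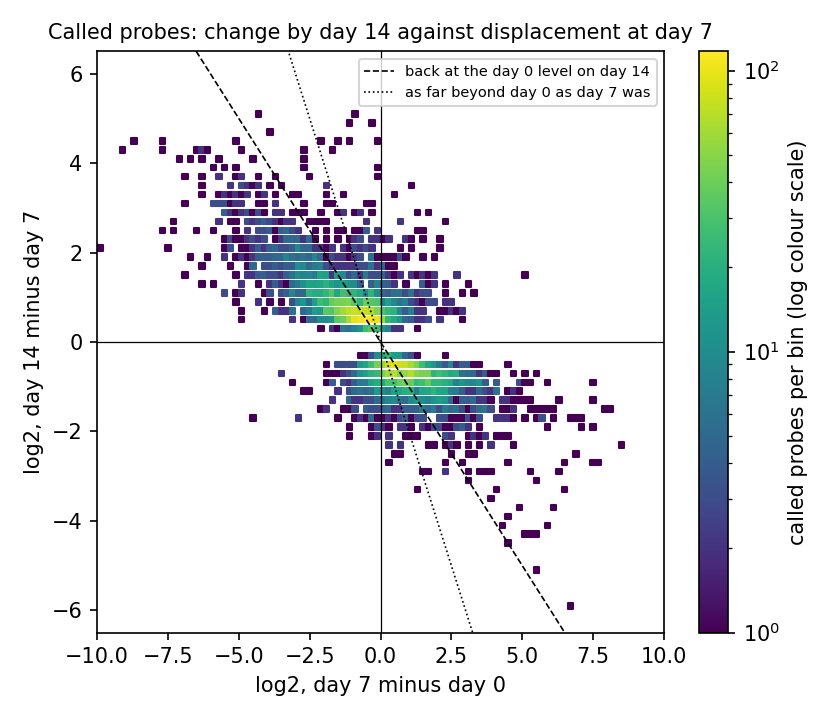
Each square is a bin of called probes, placed by the log2 difference of day 7 from day 0 (horizontal) and the log2 change from day 7 to day 14 (vertical), with the number of probes per bin as colour on a log scale. Probes between the horizontal axis and the dotted line moved toward day 0 (4644 probes), the dashed line marks a full return, and 2592 of the 3521 rises had been called below day 0 on day 7.

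The rises and the falls started from different sides of day 0. Against day 0, 44.4% of tested probes were called on day 7 and 48.4% on day 14. Of the 3521 rises, 2592 (73.6%) were called below day 0 on day 7, 228 (6.48%) above it and 701 (19.9%) neither. Of the 2733 falls, 1963 (71.8%) were above day 0 on day 7, 154 (5.63%) below it and 616 (22.5%) neither. Seen from day 7, 17.2% of the 15075 probes below day 0 rose and 1.02% fell, and 15.3% of the 12840 above day 0 fell and 1.78% rose. Among the 34888 probes not called against day 0 on day 7, 2.01% rose and 1.77% fell. These comparisons share the day 7 arrays, so the opposition of the 2 directions is in part built in and has no test.

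Many of the returning probes had not reached the day 0 level by day 14. Of the 2592 that rose from below day 0, 1455 (56.1%) were still called below it on day 14, 1020 (39.4%) were not called against it and 117 (4.51%) were called above it. Of the 1963 that fell from above, 1087 (55.4%) were still above, 839 (42.7%) were not called and 37 (1.88%) were below. Not being called does not show that the day 0 level was reached. Calls of day 14 against day 0 also set slide 3 against slides 1 and 2. The probes that moved from a day 7 level not called against day 0 mostly ended called away from it: 554 of 701 rises were above day 0 on day 14, and 461 of 616 falls were below it.

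The medians of these sets on day 3 are given beside those of the later days. The sets were chosen by their change after day 7, so a step there is fixed by the choice and the timing has no test. The rises from below day 0 had median differences from day 0 of -1.60 on day 3, -1.40 on day 7 and -0.51 on day 14. The falls from above had 1.36, 1.33 and 0.53. Both medians were farthest from day 0 on day 3. The 228 rises from above day 0 went from 0.23 on day 3 to 0.86 on day 7 and 1.74 on day 14, and the 154 falls from below from -0.57 to -0.80 and -1.57. Of all 3521 rises, 1276 (36.2%) had already risen between day 3 and day 7 by the same fit and 497 (14.1%) had fallen, while 711 (26.0%) of the 2733 falls had already fallen and 500 (18.3%) had risen. Of all tested probes 34.3% were called between day 3 and day 7.

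**Figure D2:**
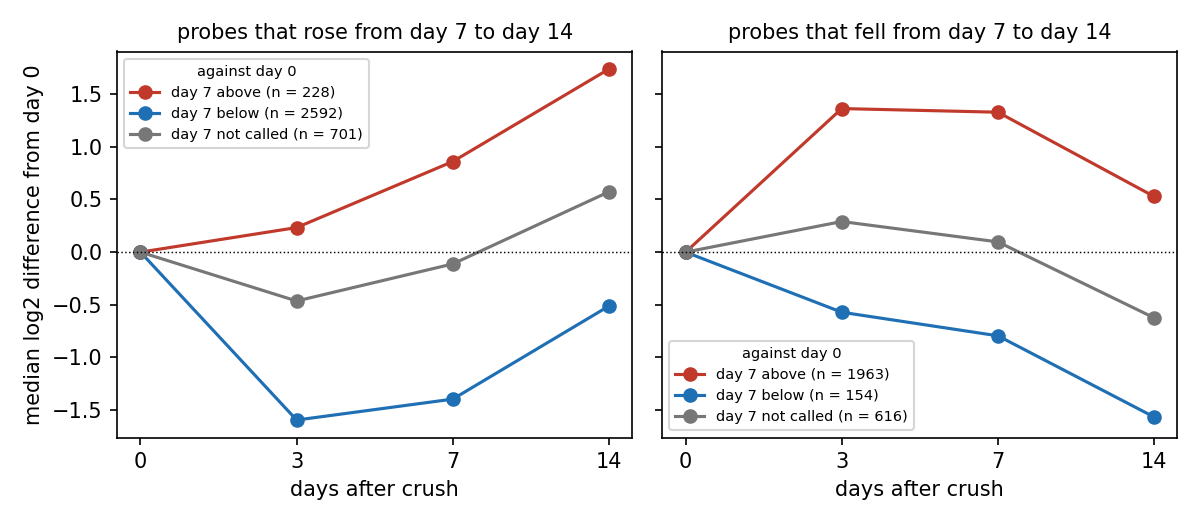
Median log2 difference from day 0 on days 0, 3, 7 and 14 for probes that rose (left) or fell (right) between day 7 and day 14, split by their state against day 0 on day 7, with the number of probes in the key. The 2592 rises from below and the 1963 falls from above are farthest from the dotted day 0 line on day 3 and lie at -0.51 and 0.53 on day 14.

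For the larger displacements the distance made up was modest. Of 5882 probes at least 2-fold below day 0 on day 7, 1736 (29.5%) rose and 54 fell farther, and the median probe had made up 19.6% of its distance by day 14, with quartiles of -3.79% and 44.0%. Of 4527 probes at least 2-fold above, 1296 (28.6%) fell and 99 rose farther, and the median probe had made up 26.0%, with quartiles of 10.1% and 42.8%. The medians became 27.2% over the 4283 probes below and 22.4% over the 3841 above with the slide block, so the order of the 2 sets turned over. Since day 7 enters both the distance and the change, noise in the day 7 level by itself adds to these percentages.

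Among probes seen clearly on all 6 arrays, the largest rise toward day 0 was MOUSELNCRNA_58744. Its log2 signal was 13.91, 13.76 and 13.97 at day 0, then 6.18, 5.56 and 6.61 on day 7, and 10.67, 10.94 and 9.96 on day 14. The 3 days did not overlap, and day 14 lay between day 7 and day 0. The rise was 4.40 ± 0.29 (SE, n = 3 a day; 21.2-fold; limma adjusted p = 1.45e-05) and 4.34 on the same slide. On day 14 the probe still differed from day 0 by -3.36 on the log2 scale. A second probe that shares at least 25 bases with it rose by 4.28, from a day 7 difference of -7.74 against day 0, and is not independent evidence.

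The largest rise away from day 0 was MOUSELNCRNA_79568. Its log2 signal was 8.51, 8.59 and 8.63 on day 0, 7.44, 6.36 and 7.38 on day 7, and 11.74, 11.61 and 11.42 on day 14, so it passed from below day 0 to above it. The rise was 4.53 ± 0.25 (SE; 23.1-fold; limma adjusted p = 6.07e-06) and 4.14 on the same slide. Its day 3 mean was 10.26, above both day 0 and day 7, so its course was up, down and up again.

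The largest fall toward day 0 was MOUSELNCRNA_88135. It measured 5.69, 6.07 and 6.33 on day 0, 10.43, 10.37 and 11.94 on day 7, and 6.27, 8.02 and 7.29 on day 14. The day 14 arrays spread over more than a log2 unit, and the lowest lay among the day 0 arrays. The fall was -3.72 ± 0.70 (SE; 13.2-fold; limma adjusted p = 0.00751). With the slide block it was -3.24, with an adjusted p of 0.101, past the threshold no longer.

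The largest fall away from day 0 was MOUSELNCRNA_76825, with 11.31, 10.65 and 10.92 on day 0, 12.39, 12.39 and 12.09 on day 7, and 8.82, 9.22 and 9.03 on day 14. It had been above day 0 on day 7 and was below it on day 14, with no overlap between any 2 of these days. The fall was -3.27 ± 0.20 (SE; 9.64-fold; limma adjusted p = 1.02e-05) and -3.37 on the same slide.

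**Figure D3:**
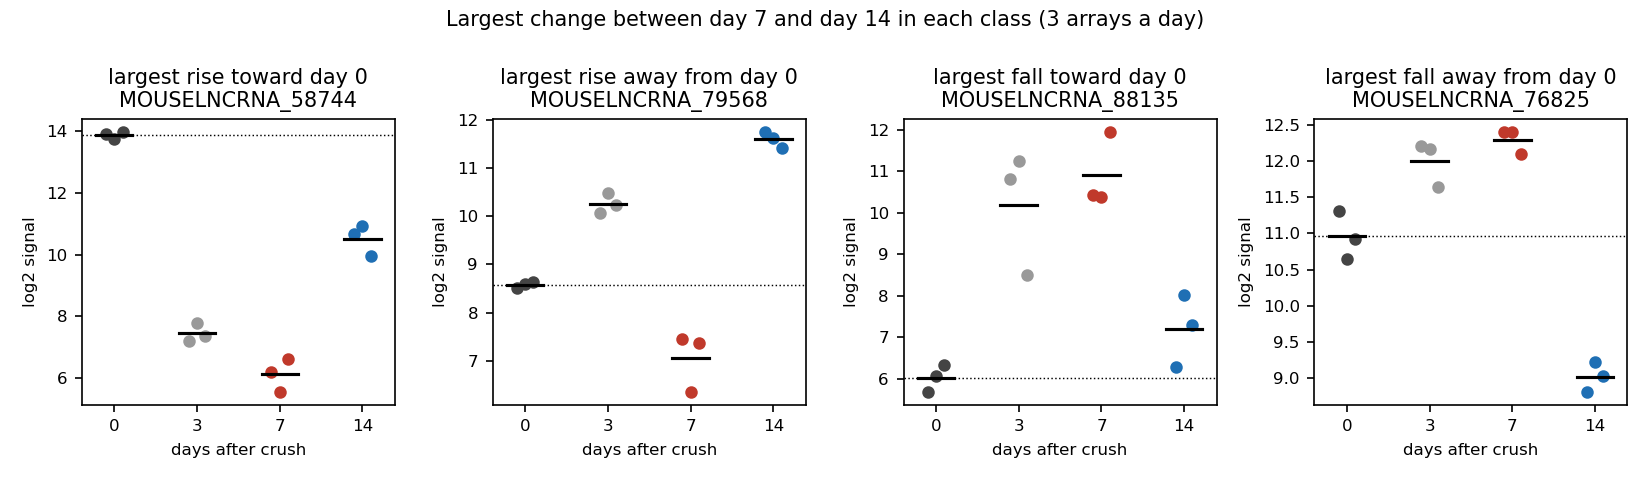
Log2 signal of the 4 named probes on every array (points, 3 a day) with the mean of each day (bar) and the day 0 mean (dotted line); the vertical scale differs between panels. MOUSELNCRNA_58744 and MOUSELNCRNA_88135 move back toward the dotted line on day 14, and MOUSELNCRNA_79568 and MOUSELNCRNA_76825 cross it.

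Called probes had a lower median GC content than all tested probes. The median GC content was 38.3% among rises and among falls and 41.7% among all tested probes. Of the 15701 probes lowest in GC (median 35.0%) 8.37% rose and 5.71% fell, and of the 15701 highest (median 45.0%) 3.34% and 3.29% did. With the slide block the lowest held 736 rises and 351 falls and the highest 322 and 360, so the falls showed no such gradient there. By brightness, 4.78% rose and 4.05% fell among the 15701 dimmest, and 5.20% and 4.67% among the 15701 brightest. The part of GC content in the calls was not tested.

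Few miRNA hairpins were called. Of 887 hairpin probes 537 passed the filter on dim probes. Of these 9 rose and 13 fell, 4.10% beside 9.96% of all tested probes, with a median change of -0.10 against -0.05. With the slide block 5 rose and 9 fell. Most hairpins named as called below met the rule for named probes, which asks for signal well above background on all 6 arrays and a call against day 0. Of the 8 in the Dlk1 to Dio3 stretch, Mir433, Mir1193, Mir377, Mir134 and Mir3070b did not meet it, and all 8 were named after their values had been seen. Members of the lists that were not called are given as values. Counts over the hairpins shifted with single arrays, from 6 called without day 14 replicate 2 to 25 without day 0 replicate 3.

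Among hairpins of myelinating glia, Mir338 and Mir3065 rose together. All 6 hairpins of this list matched a probe and 4 were tested: 2 rose, 1 fell and 1 was not called. miR-338 and miR-219 are known for promoting the maturation of myelin-forming oligodendrocytes in the central nervous system, and miR-138 is abundant in myelinating Schwann cells. The Mir338 probe (GRCm38.p6 chr11:120014765-120014824, minus strand) lies within the span of Aatk, a neural kinase gene, on the same strand. Its log2 signal was 8.15, 8.12 and 8.44 on day 0, 7.89, 7.17 and 7.21 on day 7, and 9.01, 8.99 and 8.90 on day 14. All day 14 arrays lay above all others of these days, and day 3 had been lower still, with a mean of 5.84. The rise was 1.55 ± 0.27 (SE; 2.92-fold; limma adjusted p = 0.00462), and 1.08 on the same slide (adjusted p = 0.0121). Day 7 was below day 0 by a log2 difference of -0.82 and day 14 above it by 0.73, both called.

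The Mir3065 probe (chr11:120014788-120014847, plus strand) reads the other strand of that place. It measured 5.56, 5.46 and 5.84 on day 0, 4.70, 4.27 and 4.29 on day 7, and 5.95, 5.93 and 5.85 on day 14. The day 7 arrays were the lowest of the 9, and the day 14 arrays lay just above those of day 0. The rise was 1.48 ± 0.14 (SE; 2.80-fold; limma adjusted p = 0.000112), and 1.20 on the same slide (adjusted p = 0.00131). Day 14 was not called against day 0 (0.29, adjusted p = 0.106). With normexp background correction the rise shrank to 0.49 and was not called (adjusted p = 0.113). Both probes kept their call without any single array of days 0, 7 or 14.

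Mir219a-1 (chr17:34025009-34025068, minus strand) went the other way. It measured 8.56, 8.54 and 8.72 on day 0, 8.21, 8.25 and 8.58 on day 7, and 7.83, 7.96 and 7.72 on day 14, the lowest of the 3 days. The fall was -0.51 ± 0.13 (SE; limma adjusted p = 0.0366), away from day 0, and -0.37 on the same slide (adjusted p = 0.299). The call was lost without any 1 of 7 arrays, namely day 0 replicates 1 and 2, day 7 replicates 2 and 3 or any day 14 array (adjusted p from 0.0521 to 0.137). The authors' deposited log2 values gave a change of -0.48, not called (limma adjusted p = 0.0541). Mir138-2 changed by -0.56 and was not called (limma adjusted p = 0.256), with no day 14 array well above background.

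Mir195a, of the family of miR-15 and miR-16 that targets cell cycle messages, rose. Of 7 probes of this family 3 were tested and 1 was called. The Mir195a probe (chr11:70235076-70235135, plus strand) measured 6.84, 6.75 and 6.93 on day 0, 5.29, 5.04 and 5.13 on day 7, and 6.32, 6.19 and 6.33 on day 14. The 3 days were apart, with day 14 between day 7 and day 0. The rise was 1.13 ± 0.20 (SE; 2.19-fold; limma adjusted p = 0.00556). Against the day 7 array of the shared slide it was 0.99, with an adjusted p of 0.0602.

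Of the let-7 hairpins, the family known for holding cells in the differentiated state, 9 of 12 probes were tested. Mirlet7d and Mirlet7f-1 rose and the other 7 were not called, with a median change of 0.16 over the 9. The 2 hairpins lie on chromosome 13 on the minus strand, at chr13:48536012-48536071 and chr13:48537829-48537888, close to each other. Mirlet7d measured 7.48, 7.07 and 7.16 on day 7 and 7.69, 7.94 and 7.69 on day 14. Mirlet7f-1 measured 6.16, 5.90 and 6.01 on day 7 and 6.56, 6.39 and 6.46 on day 14. Both days were apart in each, by small steps. The rises were 0.54 ± 0.15 and 0.44 ± 0.11 (SE; limma adjusted p = 0.0495 and 0.0333), and on the same slide both were 0.30 and not called (adjusted p = 0.334 and 0.251). Mirlet7d lost its call without any 1 of 8 arrays of days 0, 7 and 14, all but day 7 replicate 1 (adjusted p from 0.0546 to 0.174). Mirlet7f-1 lost its call without day 7 replicates 2 or 3 or any day 14 array (0.0672 to 0.127). Mirlet7f-1 was not called with the authors' deposited log2 values or under quantile normalization (limma adjusted p = 0.177 and 0.176), which gave nearly the same fit. Mirlet7d kept its call in both. Neither hairpin had differed from day 0 on day 7, and both were called above it on day 14.

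The hairpin of an inflammatory miRNA fell. The 3p product of Mir147 is known for its induction in macrophages by bacterial products. Its probe (chr2:122640821-122640880, plus strand) lies within AA467197 on the same strand, so it may read that host transcript. It measured 4.72, 4.51 and 4.81 on day 0, 8.81, 9.20 and 9.97 on day 7, and 8.51, 7.83 and 7.68 on day 14. Day 14 was below day 7 on every array and far above day 0. The fall was -1.32 ± 0.31 (SE; 2.50-fold; limma adjusted p = 0.0233). Against day 7 replicate 1 alone it was -0.80 and not called (adjusted p = 0.275), and the call was lost without day 7 replicates 2 or 3 or day 14 replicates 2 or 3 (adjusted p from 0.0591 to 0.0875). Day 14 was still 3.33 above day 0 on the log2 scale.

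Of the 10 probes of blood and immune cell hairpins 5 were tested, and Mir147 was the only one called. Mir142b and Mir155 changed by 0.15 and -0.02 (limma adjusted p = 0.766 and 0.960). Mir142, made in cells of the blood lineage, had a mean of 2.48 on day 0, 5.89 on day 7 and 5.83 on day 14, a change of -0.06 (limma adjusted p = 0.914). Mir223, made in granulocytes and monocytes, had 2.16, 4.85 and 4.06, a change of -0.79 (adjusted p = 0.187), and was well above background on 2 day 7 arrays and no day 14 array. Summed on the linear scale over the 10 probes, the signal was 226 to 305 on day 0, 711 to 1242 on day 7 and 422 to 585 on day 14. Mir147 alone gave 449 to 1006 of this on day 7 and 206 to 364 on day 14. The other 9 probes summed to 198 to 279, 228 to 262 and 216 to 232 on these days, which overlap. The 5 muscle hairpin probes summed to 69.0 to 98.6, 53.3 to 152 and 47.3 to 61.7 on these days, with 1 to 3, 1 to 2 and 0 to 1 of the 5 well above background. Mir133b, the 1 muscle hairpin tested, changed by -0.95 (limma adjusted p = 0.241). The part of blood, immune or muscle tissue in the other results was not tested.

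Mir21a and Mir214, of the list for injury and fibroblasts, fell and stayed above day 0. Of 11 probes on this list 6 were tested, these 2 fell and no member rose. miR-21 is known for its rise in injured tissue, and Mir214 lies with Mir199a-2 in Dnm3os, a non-coding transcript of mesenchymal cells. The Mir21a probe (chr11:86584067-86584126, minus strand, within the span of Vmp1) measured 5.22, 5.66 and 5.66 on day 0, 9.02, 8.89 and 8.42 on day 7, and 8.02, 7.85 and 7.79 on day 14. The days were apart, with day 14 much nearer to day 7 than to day 0. The fall was -0.89 ± 0.22 (SE; limma adjusted p = 0.0281) and -1.14 on the same slide (adjusted p = 0.0471). It was not called under quantile normalization (-0.85, limma adjusted p = 0.0861) or with the authors' deposited log2 values (-0.85, adjusted p = 0.0862). These settings gave nearly the same fit and are not separate checks. Nor was the fall called without day 7 replicates 1 or 2 or any day 14 array (0.0615 to 0.0989).

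The Mir214 probe (chr1:162223414-162223473, plus strand, within Dnm3os) measured 7.43, 7.70 and 7.81 on day 0, 9.81, 9.51 and 10.20 on day 7, and 8.18, 9.0 and 8.84 on day 14. Again day 14 lay between the other 2 days with no overlap. The fall was -1.16 ± 0.25 (SE; 2.24-fold; limma adjusted p = 0.0136). With the slide block it was -1.14 with an adjusted p of 0.130, and without day 7 replicate 3 the adjusted p was 0.0595. Mir199a-1, from another locus, changed by -0.24 and was not called (limma adjusted p = 0.644).

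Mir763 fell to within the range of its day 0 arrays. Its probe (chr10:120447991-120448050, minus strand) lies within Hmga2, a gene for a chromatin protein of embryonic and dividing cells, on the same strand. It measured 9.54, 9.45 and 8.95 on day 0, 10.24, 10.57 and 10.26 on day 7, and 9.43, 9.30 and 9.40 on day 14, within the range of day 0. Its day 3 mean was 12.31, so most of its fall had come before day 7. The fall from day 7 was -0.98 ± 0.25 (SE; limma adjusted p = 0.0316), and on the same slide -0.86 (adjusted p = 0.235). The call was lost without any single array of day 7 or day 14 (adjusted p from 0.0551 to 0.116). Mir1983 rose by 0.51 ± 0.14 (SE; limma adjusted p = 0.0433), from 5.90, 6.08 and 6.36 to 6.72, 6.65 and 6.53, and by 0.73 on the same slide. It lost its call without any 1 of 7 arrays of days 0, 7 and 14, all but day 0 replicate 3 and day 7 replicate 3 (adjusted p from 0.0616 to 0.146). With the authors' deposited log2 values it was not called (limma adjusted p = 0.0994).

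No member of the remaining lists was called. Of 16 probes for the miR-17 to miR-92 cluster and its relatives, known for driving cell division, 7 were tested, with a median change of -0.14 and a range from -0.16 to 0.37. Of 5 neuronal hairpin probes 2 were tested, with changes of -0.48 and -0.25.

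**Figure D4:**
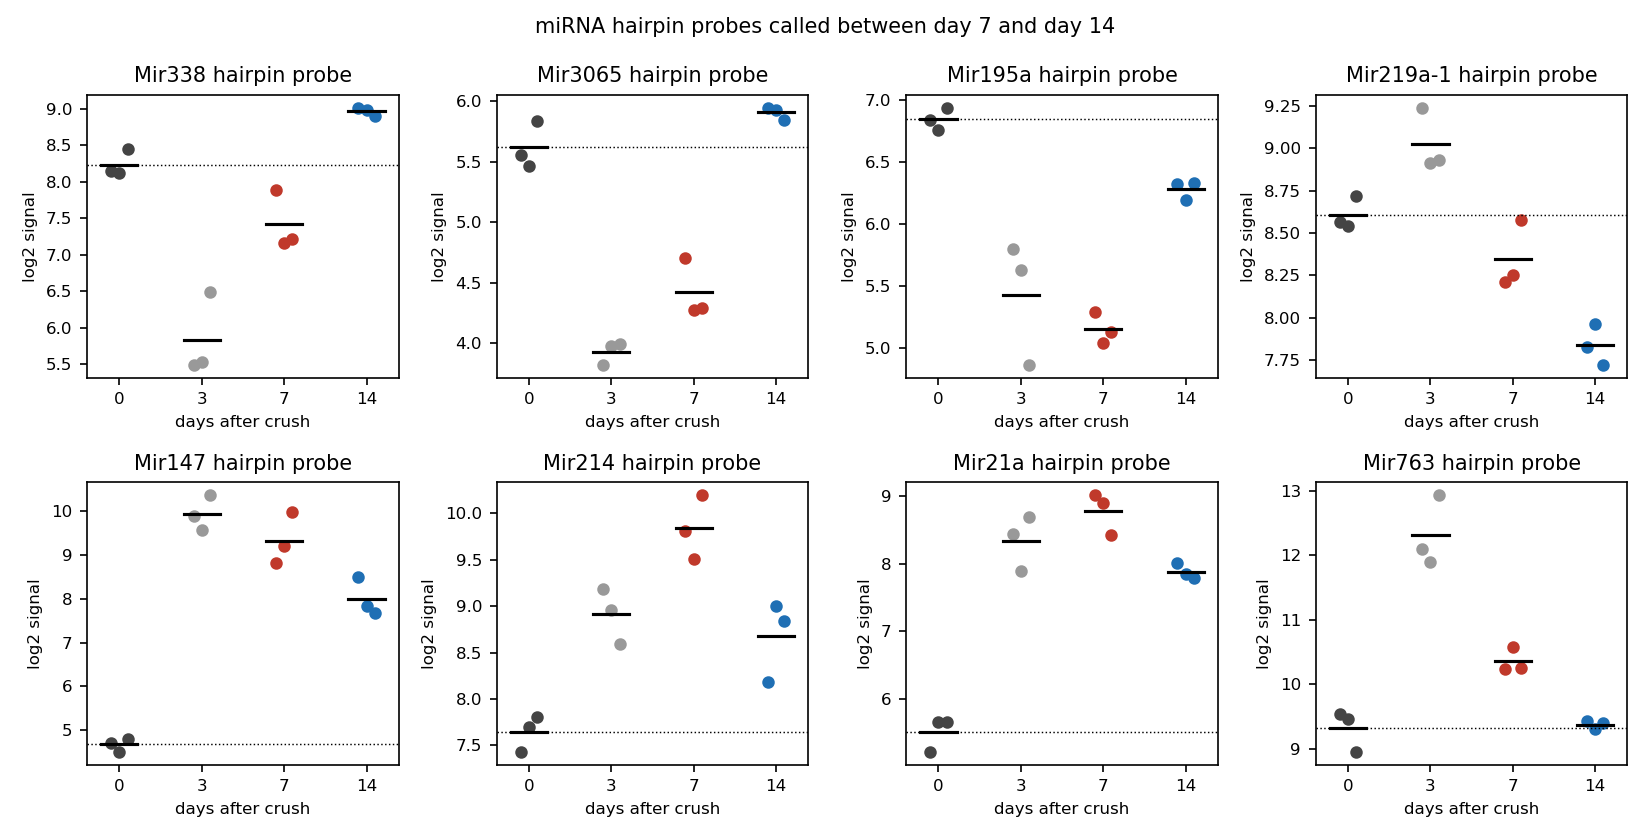
Log2 signal of 8 called hairpin probes on every array (points, 3 a day), with the mean of each day (bar) and the day 0 mean (dotted line); the vertical scale differs between panels. Mir338, Mir3065 and Mir195a rise from day 7 to day 14, Mir147, Mir214 and Mir21a fall while staying above the dotted line, Mir763 returns to it and Mir219a-1 falls below it.

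In 1 stretch of chromosome 12, 8 hairpins fell and none rose. The imprinted stretch from Dlk1 to Dio3 (GRCm38.p6 chr12:109452485-110281097) holds a long series of miRNA hairpins that are read from the maternal chromosome along with the non-coding RNAs Meg3, Rian and Mirg. The stretch was picked out after its values had been seen, so its counts are a description. Of its 56 hairpin probes 26 were tested: 8 fell (30.8%), none rose, and 25 of 26 changes were below 0, with a median of -0.44. Hairpins elsewhere gave 9 rises and 5 falls among 511 tested (2.74%) and a median of -0.09. Of these 511 changes 327 were below 0, as were 35909 of the 62803 over all tested probes. Neighbours in the stretch may sit on 1 transcript and are not independent. With the slide block 0 of the 26 were called in either direction, and the median was -0.31. Under other scalings the count called lower was 6 with quantile normalization and 4 with the percentile over probes seen on all 12 arrays. With the authors' deposited log2 values, which gave nearly the same fit as quantile normalization, it was also 6. Without single arrays it ran from 8 (day 0 replicate 3) to 0 (day 7 replicate 3), with 3 and 1 when day 7 replicate 1 or 2 was dropped, 2, 1 and 3 when day 14 replicate 1, 2 or 3 was, and 4 when day 0 replicate 2 was.

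The hairpins of this stretch did not all move toward day 0. By the count used above 15 of the 26 did and 11 moved away, among them Mir134. On day 7 8 of the 26 were called above day 0 and 1 below, and on day 14 0 were above and 3 below. In all 11 that moved away, day 0 replicate 3 (slide 2) lay below day 0 replicates 1 and 2 (slide 1). For day 0 replicates 1, 2 and 3, Mir485 had 8.26, 8.24 and 7.28 and Mir337 had 6.63, 6.56 and 5.72. Among those that moved toward day 0 some had this order and others, such as Mir493, did not. The 3 below on day 14 were among the 11. The part of the slides in these counts was not tested. Mir432 (chr12:109594964-109595023) measured 6.76, 6.82 and 6.60 on day 0, 7.34, 7.53 and 7.32 on day 7, and 6.59, 6.86 and 7.06 on day 14. All day 7 arrays lay above all arrays of the other 2 days. Its fall was -0.56 ± 0.14 (SE; limma adjusted p = 0.0262). Mir679 (chr12:109715591-109715650) measured 6.02, 5.97 and 5.69, then 6.58, 6.75 and 6.45, then 5.77, 6.04 and 6.12, a fall of -0.62 ± 0.16 (SE; limma adjusted p = 0.0381). Mir453 fell by 0.53 on the log2 scale (adjusted p = 0.0419) and Mir3070b by 0.60 (adjusted p = 0.0419). Mir433 was clearly detected throughout day 7 and on a single day 14 array, with 5.67, 5.58 and 5.47 on day 7 and 3.43, 4.89 and 4.52 on day 14 (limma adjusted p = 0.0283). Single arrays bore on each of these calls and on the 3 that follow. Mir433 and Mir377 each lost theirs without 3 of the arrays left out in turn, Mir432 without 4, Mir134 and Mir1193 without 6, Mir679 and Mir3070b without 7 and Mir453 without 8, with adjusted p up to 0.155. Among the arrays of days 0, 7 and 14, day 0 replicate 3 was the only array whose removal ended none of the 8 calls. No day 3 array was left out.

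The other 3 called hairpins of the stretch were not well above background on any day 14 array. Mir134, from a cluster known from neurons, was at least 1.46-fold lower (limma adjusted p = 0.0464) and Mir377 at least 1.12-fold lower (adjusted p = 0.0165). For Mir1193 the day 7 signal did not exceed the day 14 bound, so no fold is given (adjusted p = 0.0328). A probe upstream of a Meg3 start (chr12:109545257-109545316, within the span of Meg3, plus strand) measured 15.07, 15.20 and 15.52 on day 0, 16.22, 16.43 and 16.43 on day 7, and 15.56, 16.04 and 16.06 on day 14. Its change was -0.48 ± 0.20 (SE) and was not called (limma adjusted p = 0.165). Day 14 lay below day 7 on every array, as it did for 20.4% of all tested probes. Probes in Mirg start windows on the gene's strand changed by -0.07 and -0.48 and were not called (limma adjusted p = 0.885 and 0.283).

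**Figure D5:**
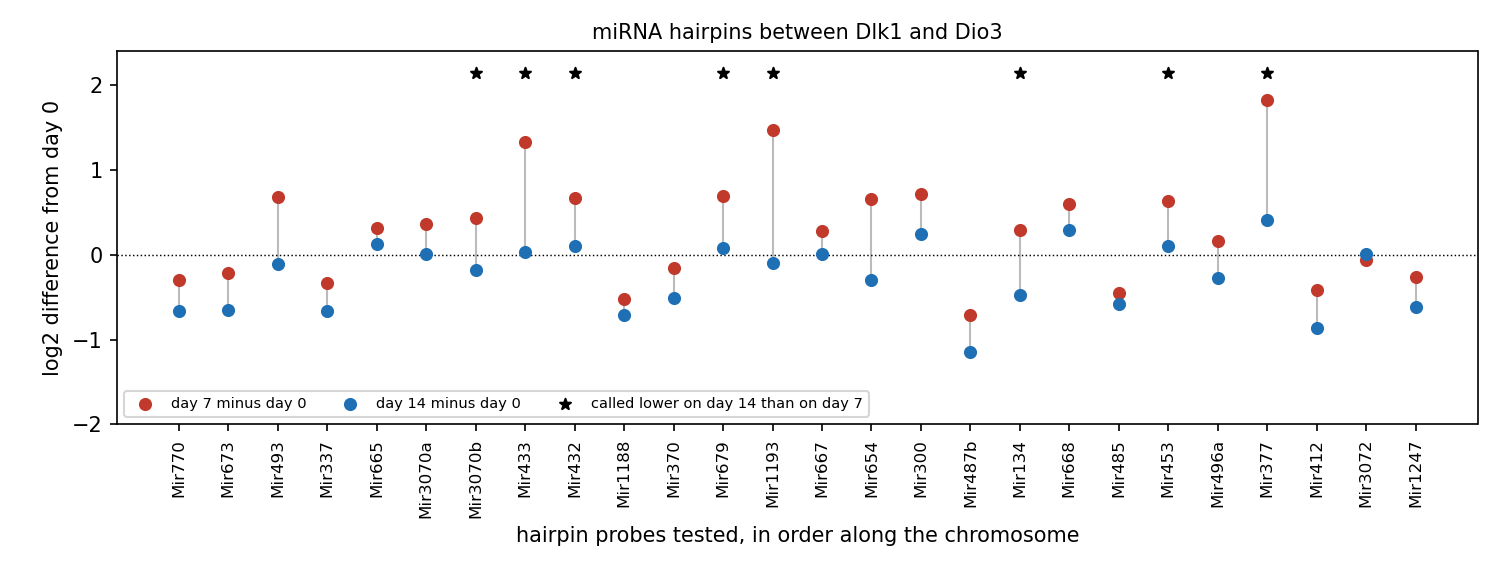
Log2 difference from day 0 of the 26 tested hairpin probes between Dlk1 and Dio3, in chromosome order, on day 7 (red) and day 14 (blue), joined by a grey line, with stars for the 8 called lower on day 14. The blue point lies below the red point for 25 of 26, and day 14 was also lower for 327 of the 511 hairpins tested elsewhere.

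Of the probes in start windows, 13 rose and 11 fell. On the gene's strand 170 were tested, 7 rose and 3 fell (5.88%, beside 9.96% of all tested probes), with 3 and 2 on the same slide. On the other strand 159 were tested, 6 rose and 8 fell (8.81%, also below that share), with 3 and 3 on the same slide. The largest rise among them that met the rule was a probe at -118 to -59 from the start of the long non-coding RNA 4930555G07Rik, counting the first base of the gene as 0, within the span of 1700113H08Rik (chr10:87230510-87230569, plus strand). It measured 9.09, 8.90 and 9.47 on day 0, 5.42, 5.26 and 4.31 on day 7, and 6.77, 7.06 and 6.17 on day 14, so it had recovered part of a deep loss. The rise was 1.67 ± 0.31 (SE; 3.18-fold; limma adjusted p = 0.00716). Against day 7 replicate 1 alone it was 1.25, with an adjusted p of 0.107.

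A probe at -229 to -170 from the start of the long non-coding RNA 1700112J05Rik (chr5:77019033-77019092, minus strand) rose from 12.86, 12.86 and 12.95 on day 7 to 14.06, 14.14 and 13.92 on day 14, against 14.79, 14.64 and 14.88 on day 0. The 3 days were tightly grouped and apart. The rise was 1.15 ± 0.10 (SE; 2.22-fold; limma adjusted p = 7.43e-05) and 1.18 on the same slide. A further 10 probes share at least 25 bases with it, and all 10 changes were above 0, from 0.25 to 1.19, of which 7 were called. Such a shared stretch may be a repeat, so the RNA that this probe reads is uncertain.

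Probes near the starts of Tmbim1 and Gm51911 read the opposite strand and lie in other genes. The Tmbim1 one (chr1:74304464-74304523, plus strand) is within Pnkd on that gene's strand. It measured 10.34, 10.19 and 10.74 on day 0, 8.46, 7.85 and 7.98 on day 7, and 9.57, 9.50 and 9.33 on day 14, a rise of 1.37 ± 0.18 (SE; 2.59-fold; limma adjusted p = 0.000839) and of 1.01 on the same slide. The Gm51911 one (chr11:83120557-83120616, plus strand) is within Slfn1, a Schlafen gene known from immune cells. It measured 5.22, 5.12 and 4.11 on day 0, 8.16, 8.23 and 9.12 on day 7, and 6.85, 6.80 and 7.63 on day 14. The fall was -1.41 ± 0.37 (SE; limma adjusted p = 0.0360). It was -1.07 on the same slide (adjusted p = 0.252), and the call was lost without day 7 replicates 2 or 3 or day 14 replicates 1 or 2 (0.0663 to 0.136).

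A probe just before a start of Zfp827, a zinc finger gene (chr8:79028367-79028426, plus strand, within its span), fell from 9.67, 9.73 and 9.81 on day 7 to 8.82, 9.11 and 9.10 on day 14, against 7.96, 8.10 and 8.14 on day 0. The day 14 arrays lay between the other 2 days. The fall was -0.73 ± 0.11 (SE; limma adjusted p = 0.00243) and -0.66 on the same slide (adjusted p = 0.0429). A second probe that overlaps it fell by 0.71 on the log2 scale.

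Of those that moved away from day 0, a probe at -96 to -37 from a start of Ahcyl2, a relative of the enzyme that hydrolyses S-adenosylhomocysteine (chr6:29859500-29859559, plus strand), rose from 7.73, 8.15 and 7.99 to 8.74, 8.67 and 8.83, against 7.94, 8.45 and 8.47 on day 0. Day 14 lay above both other days. The rise was 0.79 ± 0.15 (SE; limma adjusted p = 0.00949) and 1.01 on the same slide (adjusted p = 0.0237). A probe on the opposite strand at the start of Gm19765 rose by 0.61 ± 0.17 (SE; limma adjusted p = 0.0433), from 5.42, 4.96 and 4.67 to 5.76, 5.51 and 5.61. That rise was 0.20 with the slide block. The probe lost its call without any 1 of 7 arrays of days 0, 7 and 14, all but day 0 replicate 3 and day 7 replicate 1 (limma adjusted p from 0.0589 to 0.150). With the authors' deposited log2 values it was not called (limma adjusted p = 0.0860).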

How the data were processed

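The authors extracted a Cy3 intensity per spot with Agilent Feature Extraction 10.7, named in the submitters' processing notes. Per the file headers, background was subtracted and a spatial trend removed on each array, and arrays were not scaled to each other. The authors also deposited log2 values in a series table, with the same median (6.42) on all 12 arrays. How they were made is not given in the sources used here. The fits to these values and to quantile-normalized values were nearly the same, with 5931 and 5932 probes called and 1872 in each at 2-fold or more. These settings are therefore not separate checks.

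Control and outlier-flagged spots were left out, log2 values of repeated spots averaged, and arrays scaled to a common 75th percentile. Tested probes stood well above background on the 3 arrays of some day. With limma 3.58.1 (R 4.3.3), a mean for each day was fitted over all 12 arrays (8 residual degrees of freedom), with Benjamini-Hochberg adjustment over all tested probes. The fit was tested on simulated data with independent arrays and no slide effect, so that test does not bear on the slides. In the fit with slide as a random block, the estimated correlation of arrays on a slide was 0.56. Probes were matched in Python 3.11.15.

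Named by rule were called probes that were well above background on all 6 arrays, apart between days, and called against day 0 on day 7 or day 14: the largest of each class, up to 6 per class with 1 symbol, and every list member. A list of protein-coding markers needed gene names and was not run. The comparison, the miRNA lists and the region on chromosome 12 were chosen with earlier results of these data known. Alternatives were other scalings, background corrections, filters, blocks, weights and thresholds, and the authors' table. Each array of days 0, 7 and 14 was also left out in turn. Replicate numbers are shared by the labels of both days, but same-numbered deviations correlated at -0.06, -0.30 and -0.06, so they were not treated as pairs.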

Additional observations from a re-analysis of the deposited data

How the results depend on the processing

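Of the 6254 called probes, 0 changed sign under any alternative except normexp background correction, where 3 did. No filter, a variance trend, fewer days, the stricter threshold or a day 0 array left out leave each log2 change as it was. Those settings could not change a sign. The others reuse arrays that made the calls, so the lack of sign changes is a description and no independent support. The share of rises among the calls ran from 46.8% with array weights to 67.2% at an adjusted p below 0.01. The count called stayed within 1.5 times of 6254 under other scalings, filters, the authors' table (5931), slide as a random block (5488), a variance trend and the replicate block (5754). It was 3477 with the slide block (slide as a fixed term), 820 within slide 3, 13565 with array weights and 2677 at an adjusted p below 0.01. Toward day 0 the count was 2502 with the fixed block, 8634 with array weights, 2098 at the stricter threshold and 1551 among probes that moved 2-fold or more. Away from day 0 it was 975, 4931, 579 and 456, and 456 among probes called against day 0 on day 7. The 2-fold count of 2007 became 940 with normexp, 1231 over probes seen on all 12 arrays and 790 within slide 3.

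The 22 hairpins called became 12 with normexp, 10 with no filter, 14 with the fixed block, 14 with the replicate block, 38 with the arrays of days 7 and 14 only, 53 with array weights, 4 at the stricter threshold and 3 within slide 3. The 8 hairpins from Dlk1 to Dio3 became 4 with the percentile over probes seen on all 12 arrays, 3 with normexp, 1 with no filter, 4 over probes seen on all 12 arrays, 5 with the replicate block, and 0 with the fixed block, at the stricter threshold and within slide 3. The causes were not tested.

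Leaving out 1 array gave 3529 to 7146 called, 1640 to 2274 at 2-fold, 2591 to 5060 toward, 836 to 2086 away, 6 to 25 hairpins and 0 to 8 in the Dlk1 to Dio3 stretch. The probes named by rule and every called probe with a matched name, some not described above, gave 688 values under other settings. Of these 198 were no longer called, and of 450 with 1 array left out 166. None of these reversed, although some of the settings could not change a sign. The number of arrays, 3 a day, limits the precision.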
